A study of Mus musculus with 12 samples.

Results

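The genotype by serum interaction asks whether kidneys without Aim2 answered nephrotoxic serum differently from wild-type kidneys. For each gene it is the change after serum in knockout (KO) kidneys minus the change after serum in wild-type (WT) kidneys, on log2(signal + 1). A positive value means that the KO change was higher than the WT change, and a negative value that it was lower. All 12 kidneys of the series enter it, 3 in each of 4 groups. The members are the 750 endogenous and 20 housekeeping genes of a mouse probe panel, of which 677 reached a signal of 20 in 3 or more kidneys and were tested. The other 93 were not tested.

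The WT control and KO control groups were untreated female mice of 8 to 10 weeks. The WT NTS and KO NTS groups were female mice of the same age that received nephrotoxic serum (NTS), with kidney RNA taken at day 9 per the study's design text. The design text counts mice, so the 3 samples of a group were taken as separate animals. The knockout mice are labelled B6 and their wild-type counterparts F1 littermates, so a difference of strain background and the missing gene cannot be told apart. Aim2 itself was not analysed here, and the knockout was therefore not checked in these samples.

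Antibodies in nephrotoxic serum bind the basement membrane of the glomerulus, where they recruit complement and leukocytes, and injure the filter and then the tubules and the interstitium. AIM2 is a receptor for DNA in the cytosol that assembles an inflammasome with ASC and caspase-1, which releases active IL-1beta and IL-18. Most RNA of a whole kidney comes from tubules. In these bulk samples fewer cells of a type and less RNA per cell cannot be told apart.

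Summed endogenous signal was 1335199 to 1346839 in the 3 KO NTS kidneys and 596307 to 967120 in the other 9. Most of that gap came from 1 gene, Spp1, and was not a rise shared by the panel. The 11 kidney injury genes, with Spp1 the largest by far, summed to 699700 to 741100 in KO NTS. They summed to 82150 to 406400 in WT NTS and 42100 to 56570 in untreated kidneys. The floor, below which the deposited values never lie, was 10.02 to 15.11 signal units, and 53 to 140 genes sat on it in a kidney. 2 kidneys stood apart from their groups. On the first principal component, which held 67.5% of the variance, WT NTS 1 scored 11.3 against -5.03 and -4.47 for WT NTS 2 and 3, while the KO NTS kidneys scored 18 to 23.7 and the untreated kidneys -13.9 to -9.68. On the second component, with 11.1% of the variance, WT control 1 scored 14.6 and the other 11 kidneys -5.98 to 5.5. Single genes that rest on these kidneys are given with and without them. Counts of list members are given without WT NTS 1 as well where that moved them by over 1.5 times, and without WT control 1 they were all 0. Without WT NTS 1, 189 of the 677 tested genes were called higher and 18 lower. List counts from that fit have to be read against these. Of the 10 podocyte and glomerulus markers looked for, 0 were on the panel, so the glomerulus itself could not be followed by its defining genes.

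Across the panel the knockout kidneys had the larger response. In the interaction 70 of 677 genes passed, 65 of them higher and 5 lower, with adjusted p of 0.0351 to 0.0495 (limma, Benjamini-Hochberg over 677 genes, threshold 0.05). The share called was 10.3% in either direction, 9.6% higher and 0.739% lower. A list's count of calls has to be read against these shares. The median interaction over all tested genes was 0.38 log2 units and 492 of 677 genes were positive, so a list's median has to be read against that value. The change in WT kidneys passed for 7.98% of genes and had a median of 0.08. In KO kidneys 48.2% of genes passed, with a median of 0.42. Changes of the 677 genes in WT and in KO kidneys, which share no sample, correlated across genes with Pearson's r of 0.661 and Spearman's rho of 0.626, a description over genes that are not independent. The KO change lay farther from 0 than the WT change in 493 genes, or 72.82%. Of the 54 genes called in WT and the 326 called in KO, 44 were shared, which is 81.5% of the first list and 13.5% of the second. All 44 moved the same way in both genotypes.

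**Figure D1:**
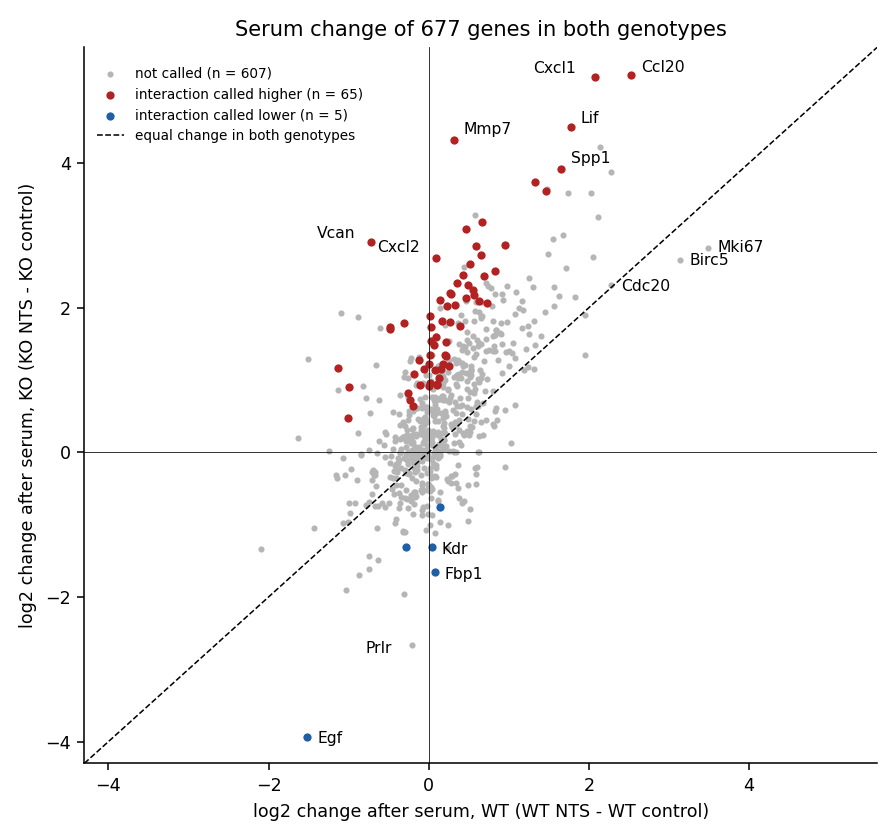
Change after serum of each of the 677 tested genes in WT kidneys (x axis, log2) and in KO kidneys (y axis, log2), with 3 kidneys per group. The dashed line marks an equal change in both genotypes; the 65 genes called higher in the interaction lie above it and the 5 called lower lie below it, while Mki67, Birc5 and Cdc20 lie near it on the right.

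The calls sat close to the threshold. With the kidneys left out in turn, 0 genes were called by limma in 9 of the 12 fits, with a smallest adjusted p of 0.0662 to 0.0836 and 154 to 183 genes at an unadjusted p under 0.05. These 9 fits leave out WT control 1, WT control 3, WT NTS 2, WT NTS 3, any KO control, KO NTS 1 or KO NTS 3. Without WT NTS 1 there were 207 calls, 189 higher and 18 lower. Without WT control 2 there were 89, with 71 higher and 18 lower, and without KO NTS 2 there were 42, with 38 higher and 4 lower. All 70 genes kept their direction, and an unadjusted p under 0.05, in each of the 12 fits, which reuse the samples the genes were called on. Which reference the signal is scaled to also moved the split. Centring each kidney on its median took the median interaction to -0.13 and gave 12 higher and 8 lower calls, and quantile normalization took it to -0.05 and gave 20 higher and 26 lower. Of the 65 genes called higher, 64 stayed positive under the deposited scaling and 4 other scalings, and the 5 called lower stayed negative under all of them. The exception was Spp1, at 0 under quantile normalization. That method gives a gene of the same rank in every kidney the same value, so a 0 there can leave its direction undecided.

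**Figure D2:**
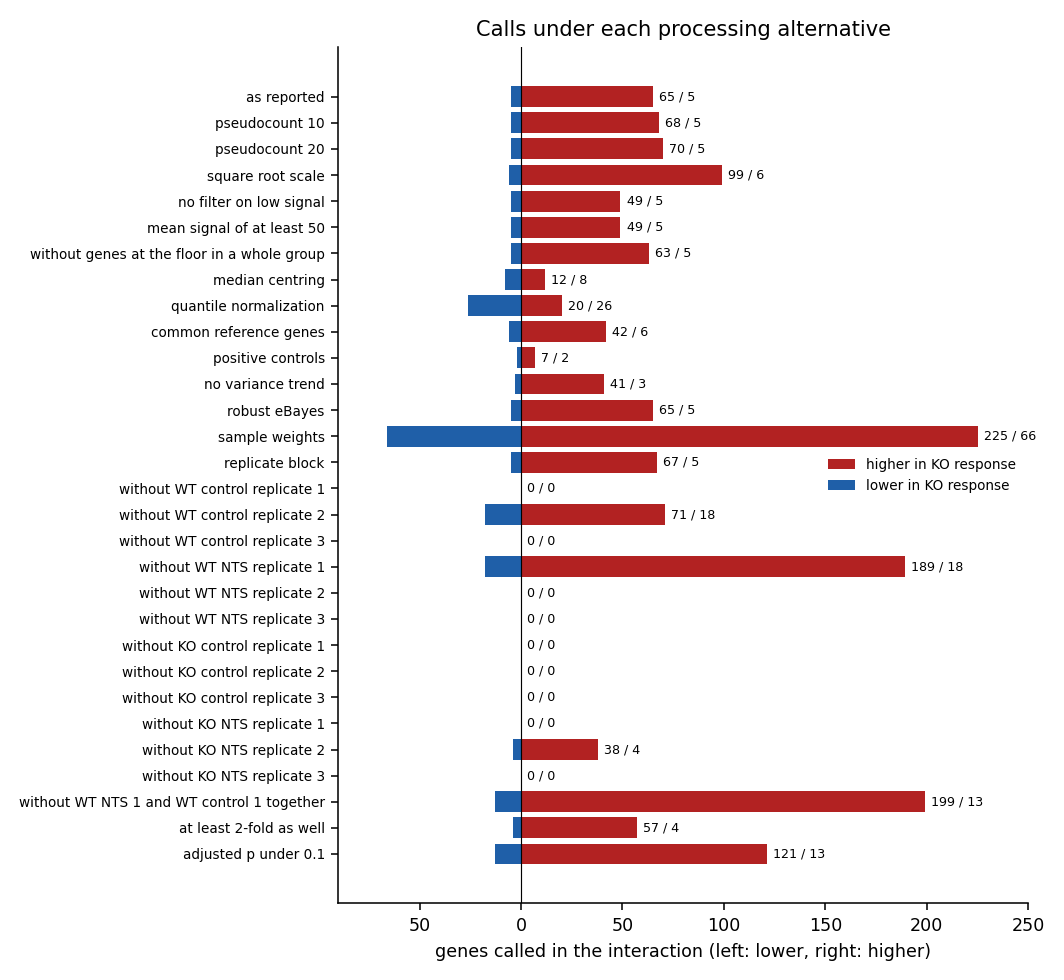
Number of genes called in the interaction under each processing alternative (horizontal axis, genes higher to the right and lower to the left, written as higher / lower at the end of each bar). The reported fit called 65 and 5, and 9 of the 12 fits that leave out 1 kidney called 0.

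Mmp7 and Vcan, both of the kidney injury list, had the highest interactions among the called genes. Mmp7 encodes matrilysin, a protease that injured tubular epithelium makes, and Vcan encodes versican, a large proteoglycan of provisional matrix. Their promoters, the 250 bases before the start site in RefSeq (GRCm38.p6), are shown because these are the called genes with the highest interactions. Mmp7 lies at chr9:7691840-7692089 on the plus strand and Vcan at chr13:89742513-89742762 on the minus strand. Each was searched on both strands for the NF-kB motif (GGGA and CC with any 4 bases between), TGANTCA (AP-1) and TTCNNNGAA (STAT), and capitals mark a match.
Mmp7: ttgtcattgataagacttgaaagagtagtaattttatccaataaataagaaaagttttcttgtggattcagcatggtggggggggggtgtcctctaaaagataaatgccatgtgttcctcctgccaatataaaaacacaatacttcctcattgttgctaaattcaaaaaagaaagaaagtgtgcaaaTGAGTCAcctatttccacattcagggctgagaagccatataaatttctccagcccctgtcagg
Vcan: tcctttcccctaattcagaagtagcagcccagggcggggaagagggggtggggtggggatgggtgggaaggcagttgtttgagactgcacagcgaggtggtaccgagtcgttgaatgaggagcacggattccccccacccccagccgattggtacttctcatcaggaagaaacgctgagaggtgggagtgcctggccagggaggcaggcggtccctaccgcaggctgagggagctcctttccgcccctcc
The Mmp7 window held an AP-1 match starting 63 bases before the start site. No match was found in the Vcan window. TGANTCA was present in 6.87% of 27025 RefSeq promoters of this length, and in 9.66% of the 497 tested genes with an entry.

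Mmp7 signal was 73.5, 14.7 and 12.4 in WT control kidneys 1 to 3, 70.8, 13.6 and 28.1 in WT NTS, 12.5, 14.8 and 14.2 in KO control, and 225, 379 and 301 in KO NTS. The KO NTS values lay above all 9 others, and the WT groups overlapped. WT control 2 and 3 and all 3 KO control kidneys were at their floor, so the starting level is an upper bound. The change after serum was 4.32 log2 units in KO and 0.32 in WT, an interaction of 4.01 (SE 0.90, adjusted p = 0.0351, limma), or 16.1-fold on the log2(signal + 1) scale. Without WT control 1, the wild-type kidney with the high untreated value, it was 3.22 (adjusted p = 0.0708), and without WT NTS 1 it was 4.61.

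Vcan signal was 136, 24.1 and 45.0 in WT control, 48.5, 21.9 and 30.1 in WT NTS, 18.6, 26.0 and 20.8 in KO control, and 266, 137 and 132 in KO NTS. WT control 1, at 136, overlapped the KO NTS range, and the other 8 kidneys lay below it. The interaction was 3.63 (SE 0.74, adjusted p = 0.0351), from a KO change of 2.91 and a WT change of -0.72 that did not pass. Without WT control 1 it was 2.97 (adjusted p = 0.0708).

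Spp1, which encodes osteopontin, a secreted phosphoprotein that attracts macrophages, rose in both genotypes and further in the knockout. Its signal was 55189, 51035 and 42743 in WT control, 401619, 80102 and 116421 in WT NTS, 40886, 50998 and 51626 in KO control, and 728382, 692059 and 730814 in KO NTS. The groups did not overlap after serum, with WT NTS 1 between the other WT NTS kidneys and the KO NTS kidneys. The change was 1.65 in WT (adjusted p = 0.0454) and 3.91 in KO, an interaction of 2.26 (SE 0.64, adjusted p = 0.0459). Without WT NTS 1 it was 2.95.

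Of the 11 tested kidney injury genes 6 were called higher and 0 lower, with a median interaction of 1.85 beside 0.38 for all genes. The list was drawn up with earlier results of these data known, so its median is no independent support. Il34 and Csf1, which encode the ligands of the macrophage growth factor receptor, and the transcription factor gene Myc were the other members called. Il34 was 147, 117 and 91.5 in KO control and 1340, 1884 and 1181 in KO NTS, against 218, 120 and 166 in WT control and 640, 732 and 196 in WT NTS. Its interaction was 2.16 (SE 0.61, adjusted p = 0.0459). Csf1 was 358 to 506 in KO NTS and 87.6 to 227 in the other 9 kidneys, with an interaction of 1.71 (adjusted p = 0.0362). Myc had an interaction of 1.67 (adjusted p = 0.0469). The 5 members that did not pass were positive as well, namely Ccl2 at 2.09 (adjusted p = 0.078), Vcam1 at 1.85 (0.113), Atf3 at 1.40 (0.0871), Icam1 at 1.20 (0.0758) and Cd44 at 0.60 (0.484). Without WT NTS 1 the list's median was 2.41 and 10 of 11 were called higher, beside 189 of all 677 tested genes. Without WT control 1 the median was 1.90 and 0 were called.

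Over all tested genes 9.6% were called higher, with a median interaction of 0.38. Among 34 tested genes of matrix, proteases and TGF-beta signalling, 6 were called higher and 0 lower, with a median interaction of 0.67. Beside Mmp7 and Vcan these included Thbs1, which encodes thrombospondin 1, Itgb3, an integrin chain, and Tgfbr2, a TGF-beta receptor chain. Thbs1 reached 888 to 1444 in KO NTS against 351 to 734 elsewhere, an interaction of 1.40 (adjusted p = 0.0384). Itgb3 had an interaction of 1.51 (adjusted p = 0.0351) and Tgfbr2 of 1.01. With WT NTS 1 left out, 12 of the 34 were called higher, beside 189 of all 677 tested genes.

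**Figure D3:**
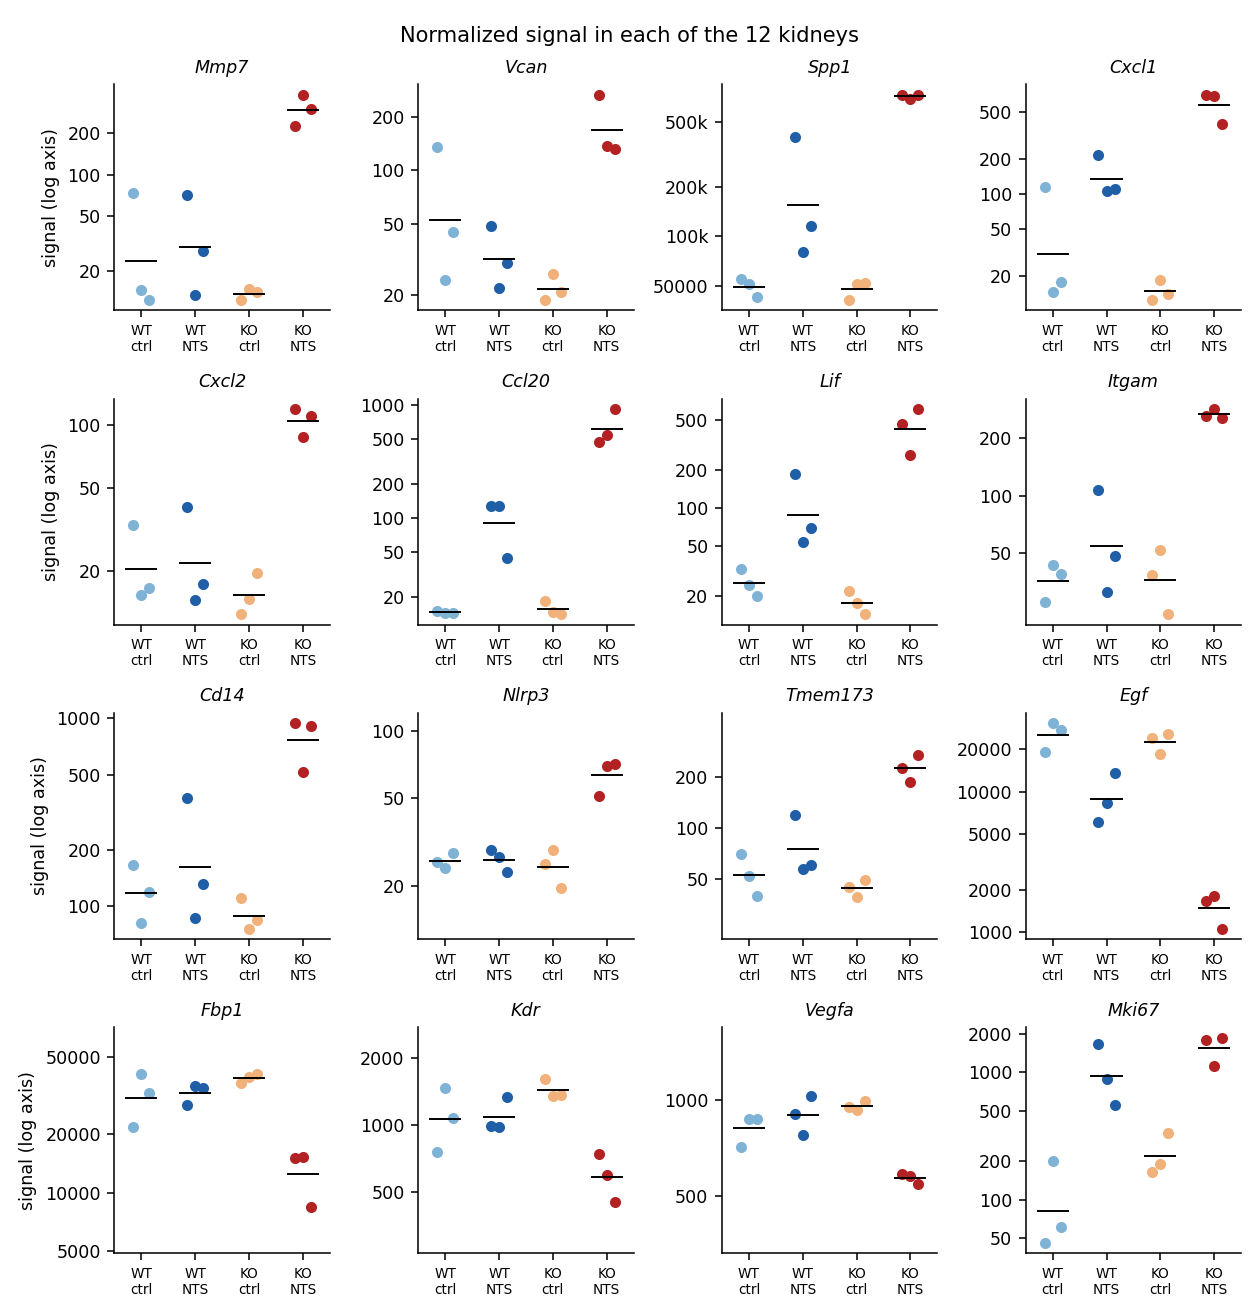
Deposited signal of 16 genes in each of the 12 kidneys, on a log axis. Each point is a kidney, in replicate order from left to right within a group, and the bar is the geometric mean of 3. The KO NTS points lie above all other points in Mmp7, Spp1, Cxcl1, Ccl20 and Itgam, below all others in Egf, Fbp1 and Vegfa, and overlap the WT NTS points in Mki67.

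In several genes the WT value after serum lay below or level with the untreated one while the KO value lay above it. Among the 65 genes called higher the median change was 0.20 in WT and 1.81 in KO, and 14 had a WT change below 0. Over all tested genes the medians were 0.08 in WT and 0.42 in KO. The 65 were chosen on the KO change minus the WT change, which favours low WT and high KO values. Ppl, which encodes periplakin, a protein of epithelial cell junctions, was 333, 84.9 and 133 in WT control, 117, 42.8 and 69.8 in WT NTS, 135, 89.8 and 81.1 in KO control, and 264, 185 and 229 in KO NTS. WT control 1 was the highest of the 12, and the KO NTS kidneys lay above the other 8. The WT change of -1.13 and the KO change of 1.16 did not pass by themselves, with adjusted p of 0.17 and 0.0565, and the interaction of 2.29 did (SE 0.66, adjusted p = 0.0472). Without WT control 1 it was 1.75 (adjusted p = 0.0797). Slc2a1, the glucose transporter GLUT1, fell by 1.01 in WT (adjusted p = 0.044) and had a KO change of 0.47 that did not pass, an interaction of 1.48 (adjusted p = 0.0356). F2rl1, which encodes the protease-activated receptor PAR2, was 1191 to 1494 in KO NTS and 370 to 428 in KO control. In WT control it was 1320, 397 and 866, so WT control 1 lay in the KO NTS range. Its interaction was 2.22 (adjusted p = 0.0351), and without WT control 1 it was 1.83 (adjusted p = 0.0708).

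Neutrophil-attracting chemokines were part of the difference. CXCL1, CXCL2 and CXCL5 signal through CXCR2 on neutrophils, and NF-kB is a known activator of such genes. The promoters of Cxcl1, at chr5:90890995-90891244, and Cxcl2, at chr5:90903649-90903898, both on the plus strand, are shown because the genes are neighbours that moved together, and they were chosen after their values were seen. Capitals mark the matches to the NF-kB motif on either strand.
Cxcl1: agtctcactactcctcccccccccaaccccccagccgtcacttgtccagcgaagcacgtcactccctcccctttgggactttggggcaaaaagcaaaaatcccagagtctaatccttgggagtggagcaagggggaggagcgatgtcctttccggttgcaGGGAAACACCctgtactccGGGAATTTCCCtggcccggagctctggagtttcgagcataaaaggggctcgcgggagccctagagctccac
Cxcl2: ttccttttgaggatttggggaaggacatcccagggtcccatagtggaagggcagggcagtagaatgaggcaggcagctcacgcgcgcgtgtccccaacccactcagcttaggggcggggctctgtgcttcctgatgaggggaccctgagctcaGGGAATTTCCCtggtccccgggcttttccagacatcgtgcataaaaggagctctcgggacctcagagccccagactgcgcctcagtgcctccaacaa
Cxcl1 held matches that start 90, 71 and 70 bases before the start site and Cxcl2 matches at 97 and 96. The last pair of each gene overlaps within the same GGGAATTTCCC. This motif was in 17.3% of all 27025 promoters, in 27.4% of the 497 tested genes with an entry, in 22 of 45 genes called higher (48.9%) and in 1 of 4 called lower. A match describes the letters alone.

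Cxcl1 signal was 115, 14.7 and 17.8 in WT control, 214, 106 and 110 in WT NTS, 12.5, 18.4 and 14.2 in KO control, and 704, 685 and 395 in KO NTS. Serum-treated kidneys of the knockout lay above those of the wild type without overlap, and WT control 1 lay among the WT NTS kidneys. The interaction was 3.11 (SE 0.87, adjusted p = 0.0459), and without WT control 1 it was 2.19 (adjusted p = 0.0708). Cxcl2 was 119, 87.5 and 110 in KO NTS and 12.5 to 40.8 in the other 9 kidneys, an interaction of 2.60 (SE 0.54, adjusted p = 0.0351). Cxcl5 was 198, 243 and 262 in KO NTS, 114, 32.3 and 22.3 in WT NTS and 12.5 to 24.9 in untreated kidneys, an interaction of 2.42 (SE 0.69, adjusted p = 0.0459). Of the 6 tested genes of this chemokine and receptor list 3 were called higher and all 6 were positive, with a median of 1.54. Beside them, the 10 neutrophil markers on the panel summed to 656.8 to 779.3 in KO NTS and 247.6 to 481 in WT NTS. In untreated kidneys the sum was 249.4 to 352.1 in KO and 254.6 to 325.9 in WT. Itgam is part of this sum, and 2 of the 10 markers, Ly6g and Ceacam3, were on the floor in 10 or more kidneys. Of 7 tested neutrophil markers 1 was called, Itgam, which macrophages express too, and 2 without WT NTS 1. The part of neutrophil number in the chemokine values was not tested.

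Ccl20, the CCR6 ligand that draws Th17 cells and immature dendritic cells, had an interaction that did not hinge on either outlying kidney in size. It was 15.1, 14.7 and 14.7 in WT control, 129, 127 and 44.6 in WT NTS, 18.6, 14.8 and 14.2 in KO control, and 474, 545 and 923 in KO NTS. Serum raised it in both genotypes, by 2.53 in WT (adjusted p = 0.00343) and by 5.21 in KO (adjusted p = 7.39e-06), and the 4 groups overlapped only between the untreated ones. The interaction was 2.68 (SE 0.54, adjusted p = 0.0351). It was 2.67 without WT control 1 and 2.94 without WT NTS 1. Of the untreated kidneys 4 were on the floor for this gene.

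Lif, a cytokine of the IL-6 family that signals through gp130 and STAT3, was 32.5, 24.1 and 19.9 in WT control, 186, 53.2 and 68.9 in WT NTS, 21.9, 17.3 and 14.2 in KO control, and 460, 261 and 608 in KO NTS. The order was the same in kind, with WT NTS between the untreated and the KO NTS kidneys and no overlap after serum. Its interaction was 2.72 (SE 0.62, adjusted p = 0.0351). Of 8 tested genes of the IL-6 family and Stat3 pathway 2 were called higher, Lif and the receptor chain gene Il6ra at 1.04, with a median of 0.62. The share called higher over all tested genes was 9.6%. Stat3 itself was at 1.05 (adjusted p = 0.0553). Edn1, which encodes the vasoconstrictor endothelin 1, was 604, 846 and 838 in KO NTS and 69.2 to 392 in the other 9, an interaction of 2.52 (SE 0.58, adjusted p = 0.0351).

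Myeloid surface genes were higher after serum in the knockout. Cd14, the lipopolysaccharide co-receptor of monocytes and macrophages, was 166, 81.0 and 119 in WT control, 376, 86.5 and 131 in WT NTS, 111, 75.8 and 84.2 in KO control, and 940, 519 and 908 in KO NTS. WT NTS 1 was the highest kidney outside KO NTS, and WT NTS 2 and 3 lay within the untreated range. The interaction was 2.62 (SE 0.66, adjusted p = 0.0356), and without WT NTS 1 it was 3.22. Itgam, the CD11b chain of complement receptor 3, was 263, 285 and 256 in KO NTS, 107, 31.3 and 48.5 in WT NTS and 23.9 to 51.9 in untreated kidneys, an interaction of 2.26 (SE 0.57, adjusted p = 0.0356). Siglec1, a sialic acid receptor of macrophages, was 67.8, 72.3 and 144 in KO NTS and 12.4 to 33.0 elsewhere, an interaction of 2.02 (adjusted p = 0.0356).

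In all, 7 of 24 tested macrophage and monocyte markers were called higher and 0 lower, 21 were positive, and the median interaction was 0.91. Mrc1, the mannose receptor, was 541 to 714 in KO NTS, 107 to 327 in WT NTS and 92.2 to 138 in untreated kidneys, an interaction of 1.70 (adjusted p = 0.0472). Cd80, a costimulatory ligand for T cells, was 126 to 142 in KO NTS and 18.6 to 71.8 elsewhere, an interaction of 1.76 (adjusted p = 0.0459). Csf2rb, the shared receptor chain for GM-CSF and IL-3, had an interaction of 1.51 and Ly6c1 of 0.84. The panel's 25 markers of this list summed to 27590 to 28640 in KO NTS, 14390 to 18340 in WT NTS, 12350 to 12950 in KO control and 12720 to 14060 in WT control. How much of the interaction of other genes moved with these cells was not tested. Without WT NTS 1 the list's median was 1.28 with 16 called higher, and without WT control 1 it was 1.02 with 0 called.

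Toll-like receptor and NF-kB genes gave 7 calls among 21 tested, all higher, with a median interaction of 0.87. The receptors were Tlr2, which senses bacterial lipoproteins, Tlr7 and Tlr8, endosomal receptors of the RNA-sensing family, and Cd14. Tlr8 was 152, 124 and 89.2 in KO NTS and 17.7 to 39.8 in the other 9 kidneys, an interaction of 1.99 (SE 0.42, adjusted p = 0.0351). Tlr2 was 214 to 285 in KO NTS, 133, 38.6 and 46.5 in WT NTS and 31.2 to 50.6 in untreated kidneys, an interaction of 2.08 (adjusted p = 0.0384). The transcription factor subunits Nfkb1 and Rela had smaller interactions of 1.06 and 0.91 (adjusted p of 0.0459 and 0.0495). Tnfaip3, which encodes the feedback inhibitor A20, was 286 to 397 in KO NTS and 89.8 to 201 elsewhere, an interaction of 1.36 (adjusted p = 0.0356). The other 14 did not pass, and 3 of them were below 0. In the fit that left out WT NTS 1, 13 of the 21 were called higher, beside 189 of all 677 tested genes.

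Inflammasome, IL-1 and IL-18 genes are those nearest to the known role of AIM2, and 1 of 11 tested was called. That is close to the 9.6% of all tested genes called higher. Nlrp3, which encodes the sensor of another inflammasome, was 25.8, 24.1 and 28.3 in WT control, 29.1, 27.1 and 23.3 in WT NTS, 25.2, 29.2 and 19.8 in KO control, and 51.1, 70.2 and 71.0 in KO NTS. It was level in the 9 other kidneys and higher in all 3 KO NTS, an interaction of 1.32 (SE 0.31, adjusted p = 0.0351). Il1rn, which encodes the IL-1 receptor antagonist, had an interaction of 2.16 that did not pass (adjusted p = 0.0913), with all 3 KO control kidneys on the floor. Il1b at 0.55 (95% interval -0.55 to 1.65), Il18 at -0.19 (-0.83 to 0.45) and Casp1 at -0.27 (-1.25 to 0.72) did not pass, and the intervals of Il1b and Casp1 extend past 2-fold. The median of the list was 0.55 beside 0.38 for all genes. Of the 11, 4 were called higher without WT NTS 1, Il1rn among them at 2.88 (adjusted p = 0.00373), and the median was 0.74. In that fit 189 of all 677 tested genes were called higher, and the median over all genes was 0.51. These are RNA levels, and cleavage of the proteins was not measured.

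Among 6 tested genes of cytosolic DNA and RNA sensing, 1 passed, beside 9.6% of all tested genes called higher. Tmem173, which encodes STING, the adaptor downstream of the DNA sensor cGAS, was 223, 187 and 268 in KO NTS, 119, 57.4 and 60.1 in WT NTS and 39.0 to 69.7 in untreated kidneys. Its interaction was 1.82 (SE 0.43, adjusted p = 0.0351). Mb21d1, which encodes cGAS, was at 1.01 and did not pass. Of the 6, 3 were called higher without WT NTS 1, beside 189 of all 677 tested genes. Of 9 tested immune genes near Aim2 on chromosome 1, Fcgr3 alone was called, at 1.33 (adjusted p = 0.0356). It was 191, 192 and 120 in KO NTS and 36.6 to 86.4 elsewhere. The median of these 9 was 0.24, which lay 0.14 below that of all genes, but 0.04 above it without WT NTS 1 and 0.19 above it without WT control 1. Of the 9, 2 were called higher and 1 lower without WT NTS 1.

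Of the antigen presentation genes, the classical class I genes H2-K1 and H2-D1 were called, 2 of 13 tested class I presentation genes, with a median of 0.66. Over all tested genes 9.6% were called higher, with a median of 0.38. H2-K1 was 6691, 6120 and 8532 in KO NTS and 2653 to 4671 in the other 9, an interaction of 1.22 (SE 0.29, adjusted p = 0.0356). H2-D1 had an interaction of 1.03 (adjusted p = 0.0351). Both are close relatives, and whether their probes detect each other or differ between strains was not tested. Of 12 tested genes of the class II presentation list 4 rose in WT and 11 in KO, with a median change of 1.04 and 1.46 and a median interaction of 0.40. In the interaction Cd80 alone was called, a costimulatory ligand gene and not an MHC chain, which is also in the macrophage list. H2-Ab1, a class II beta chain, was 9302, 4604 and 4713 in WT NTS and 11586, 12097 and 13072 in KO NTS, with an interaction of 0.16 (-0.97 to 1.28). The calls were 5 of 13 in class I and 4 of 12 in class II, all higher, when WT NTS 1 was left out. In that fit 189 of all 677 tested genes were called higher. Of 38 interferon-stimulated genes 1 was called, Ifi35 at 0.94, beside 9.6% of all tested genes called higher, with a median of 0.63. Leaving out WT NTS 1 gave 12 called higher, beside the same 189 of 677, and a median of 0.91 beside 0.51 for all genes.

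Genes of sugar uptake and use included Hk2, a hexokinase that phosphorylates glucose, and Slc2a1. Hk2 was 79.7, 54.0 and 115 in KO NTS and 12.4 to 23.9 in the other 9 kidneys, 4 of which were on the floor. Its interaction was 1.94 (SE 0.45, adjusted p = 0.0351). Across 21 tested hypoxia and glycolysis genes 2 were called higher and 1 lower, close to the share in the whole panel, with a median of 0.21. Leaving out WT NTS 1 gave 4 called higher and 2 lower, beside 189 and 18 of all 677 tested genes. Slc7a5, an amino acid transporter, had an interaction of 2.18 (adjusted p = 0.0472), Cebpb, a transcription factor of acute inflammation, of 1.96 (0.0351), and Trp53, which encodes p53, of 1.14 (0.0384). Cdkn1a, a p53 target that halts the cell cycle, was at 2.71 and did not pass (adjusted p = 0.0587), with WT control values of 1159, 122 and 371. Without WT control 1 its interaction was 1.90.

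The 5 genes called lower are known in tubule and vessel. Egf, made by the distal tubule and lost when it is injured, had the smallest p of the table. Its promoter, at chr3:129725087-129725336 on the minus strand, is shown because it is the called gene with the lowest interaction. The same search found no match in these letters.
Egf: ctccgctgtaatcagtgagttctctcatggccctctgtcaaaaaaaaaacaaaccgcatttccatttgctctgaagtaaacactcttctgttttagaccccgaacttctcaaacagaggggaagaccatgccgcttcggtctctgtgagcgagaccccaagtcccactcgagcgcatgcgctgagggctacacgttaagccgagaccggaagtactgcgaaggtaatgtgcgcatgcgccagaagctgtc
Egf signal was 19031, 30645 and 27619 in WT control, 6087, 8325 and 13638 in WT NTS, 24099, 18390 and 25810 in KO control, and 1676, 1812 and 1058 in KO NTS. The untreated groups overlapped, every WT NTS kidney lay below them, and every KO NTS kidney lay below every WT NTS kidney. The gene fell by 1.51 in WT (adjusted p = 0.0158, limma) and by 3.93 in KO (adjusted p = 7.39e-06), an interaction of -2.42 (SE 0.43, adjusted p = 0.0351, limma). It ranged from -2.69 to -2.10 with single kidneys left out.

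Fbp1, a gluconeogenic enzyme of the proximal tubule, was 21865, 41106 and 32775 in WT control, 28256, 35599 and 34598 in WT NTS, 36744, 39656 and 41010 in KO control, and 15025, 15234 and 8443 in KO NTS. The KO NTS kidneys lay below the other 9, which overlapped. Its interaction was -1.73 (SE 0.38, adjusted p = 0.0351). Among 10 tested tubule and hormone receptor genes 2 were called lower and 1, Slc2a1, higher, and the median interaction was -0.79. With WT NTS 1 left out, 4 were called lower, beside 18 of all 677 tested genes. Prlr, the prolactin receptor gene, was at -2.46 and did not pass (adjusted p = 0.072), with values of 1585, 6468 and 2651 in WT control and 935 to 1406 in KO NTS. Tfrc, the transferrin receptor gene, is also a housekeeping gene of the panel and was at -0.88 (adjusted p = 0.078). The panel's genes of this list summed to 55320 to 71730 in KO NTS, 81530 to 109300 in WT NTS and 101400 to 140400 in untreated kidneys.

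The other 3 genes called lower belong to the vascular endothelial growth factor and angiopoietin systems, which keep capillaries alive. Vegfa, the growth factor, was 586, 577 and 544 in KO NTS and 714 to 1030 in the other 9 kidneys, an interaction of -0.90 (SE 0.20, adjusted p = 0.0351). Its receptor gene Kdr was 735, 591 and 450 in KO NTS and 752 to 1608 elsewhere, an interaction of -1.34 (SE 0.35, adjusted p = 0.0356). Angpt1, the ligand of the TIE2 receptor, was 280, 323 and 279 in KO NTS and 447 to 812 elsewhere, an interaction of -1.02 (SE 0.27, adjusted p = 0.0384). All 3 had WT changes near 0 that did not pass, of 0.14, 0.04 and -0.29. In the endothelial list these were the 3 of 13 called, all lower, beside 0.739% of all tested genes called lower. The list's median was -0.04, which lay 0.42 below that of all genes. Its defining markers Pecam1 and Cdh5 were at 0.13 and 0.43 and were not called. Other genes of the growth factor and angiopoietin systems were not called either. Flt1 was at -0.04, Tie1 at -0.11, Vegfb at -0.37, Vegfc at -0.05 and Angpt2 at 0.39.

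**Figure D4:**
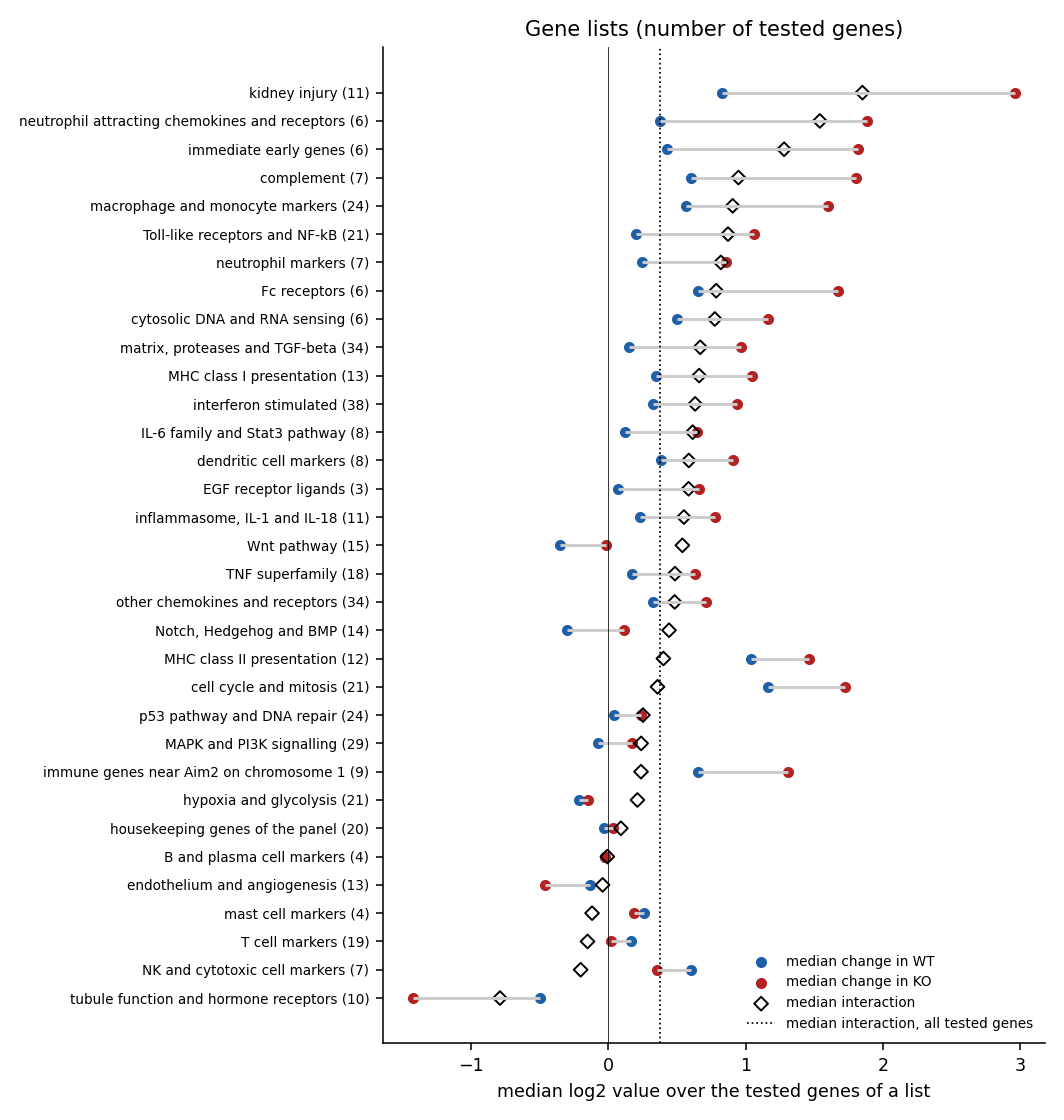
Median log2 change in WT kidneys (blue), median change in KO kidneys (red) and median interaction (open diamonds) over the tested genes of each list, with the number of tested genes in brackets. The dotted line is the median interaction of all tested genes. The kidney injury list has the highest median interaction at 1.85 and the tubule list the lowest at -0.79. All lists were drawn up with earlier results of these data known, so this order is no independent support.

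Serum raised 11 of the 21 tested cell cycle genes in WT and 16 in KO, and lowered 1 in each. Their median change was 1.16 in WT and 1.72 in KO, the median interaction was 0.36, and 1 was called, Ccne1, which encodes cyclin E1, at 1.62 (adjusted p = 0.0351). In the fit that left out WT NTS 1, 6 of the 21 were called higher, beside 189 of all 677 tested genes. Mki67, the gene of the proliferation marker Ki-67, was 45.9, 200 and 60.7 in WT control, 1668, 884 and 553 in WT NTS, 164, 192 and 331 in KO control, and 1787, 1117 and 1862 in KO NTS. The treated groups overlapped and both lay above the untreated ones. The change was 3.49 in WT and 2.82 in KO, an interaction of -0.67 with a 95% interval of -2.28 to 0.95, so a difference of 2-fold or more in the direction of a smaller KO change is within it. Rrm2, a subunit of ribonucleotide reductase, was at -0.06 (-0.85 to 0.73), an interval that lies within 2-fold, and Cdc20, a mitotic regulator, at 0.04 (-1.25 to 1.32). Birc5, which encodes survivin, was at -0.47 (-1.61 to 0.66). These 4 genes were picked after their values were seen.

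Bax, a p53 target that promotes apoptosis, and Gas1, which restrains cell growth, were 2 of the 6 genes whose interval stayed closest to 0 at its farther bound, among genes called in both serum changes. Bax was 277 to 349 in WT control, 435 to 465 in WT NTS, 325 to 342 in KO control and 485 to 552 in KO NTS, an interaction of 0.08 (-0.35 to 0.50). Gas1 fell by 0.63 in WT and by 0.74 in KO, an interaction of -0.10 (-0.60 to 0.39). Over all tested genes, 171, or 25.26%, had a 95% interval wholly within 2-fold either way, and the median interval reached 0.83 to each side. The intervals of the other genes reached past 2-fold in at least 1 direction, so for those not called a difference of that size remained possible.

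Of 19 tested T cell markers 0 were called by limma, 0 had an unadjusted p under 0.05 in either direction, and the median interaction was -0.15. Cd4, the T helper co-receptor, was called at 1.09 without WT NTS 1 (adjusted p = 0.0379), and then the median was 0.06. Cd4 was 25.9 to 46.0 in KO NTS and 10.0 to 23.9 elsewhere, close to the floor, with an interaction of 0.84 over all kidneys (adjusted p = 0.178). Cd3e, a chain of the T cell receptor complex, was 12.4 to 30.1 in all 12 kidneys, close to the floor, with an interaction of -0.15 (-0.93 to 0.62). The 7 tested natural killer and cytotoxic markers had a median of -0.20 and 0 calls, also with 0 at an unadjusted p under 0.05.

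In untreated kidneys 0 of 677 genes passed (limma, smallest adjusted p = 0.575), 57 had an unadjusted p under 0.05, and the median difference of KO minus WT was 0.06. After serum 33.5% of genes passed, with a median difference of 0.45. The 65 genes called higher had a median difference of 1.42 after serum and of -0.11 before it. Before serum 54 of the 65 were lower in the knockout, 13 of them by more than 0.5. The interaction subtracts the untreated difference, so a low starting value adds to it. Choosing genes with a high interaction therefore favours such values, and the count is no test of a genotype difference before serum. Vcan differed by -1.26 in untreated and by 2.38 in treated kidneys, and Cxcl1 by -1.04 and 2.08. WT control 1 held the highest untreated value of Mmp7, Vcan, Cxcl1, Cxcl2, Ppl and F2rl1. In Ccl20, Itgam, Siglec1 and Cd80 the untreated difference was within 0.1 of 0.

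**Figure D5:**
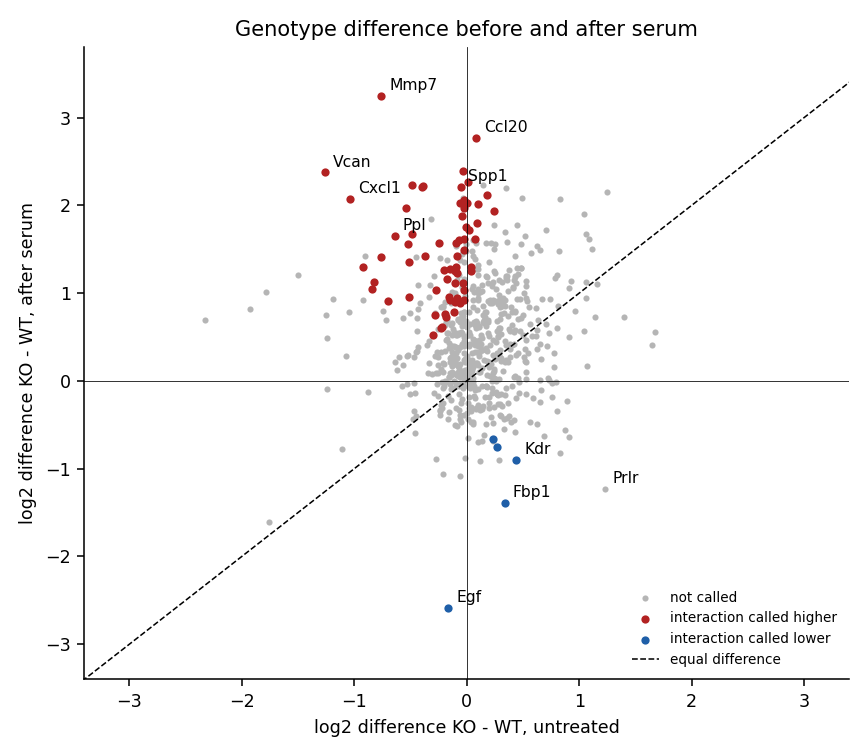
Difference between genotypes (KO minus WT, log2) of each of the 677 tested genes in untreated kidneys (x axis) and after serum (y axis), with 3 kidneys per group. The dashed line marks an equal difference; genes called higher in the interaction lie above it, with Mmp7, Vcan and Cxcl1 to the left of 0 before serum and Ccl20 and Spp1 near 0.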

How the data were processed

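Kidney RNA of 12 mice was measured on a panel of 750 endogenous and 20 housekeeping genes with 8 negative and 6 positive controls, per the file headers. A column kit gave the RNA, per the labels' protocols. The sources used here do not give the instrument or its software. The authors deposited 1 normalized signal for each gene. Tested on the file, housekeeping genes had a geometric mean of 380.1 in 11 kidneys and 384.2 in KO control 3, and no gene's deposited signal lay under the geometric mean of that kidney's negative controls, here called the floor. Values above the floor and under 80 were whole multiples of 1 step per kidney (0.955 to 1.095, within 0.01 of a step). Values on the floor carry no count, so the signal was not treated as counts. Scaling to housekeeping genes removes changes that all genes share, and the floor understates changes from low levels. Of the 20 housekeeping genes 3 were called higher and 3 lower in the KO change, and 0 in the WT change or the interaction. They summed to 23610 to 27170 in KO NTS, 28320 to 37570 in WT NTS and 36300 to 40700 in untreated kidneys. The values of another deposited table were identical (largest difference 0).

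The interaction was tested in R 4.3.3 with limma 3.58.1 after log2(signal + 1), with 1 mean per group over all 12 kidneys, no covariate and a variance trend, on genes that reached a signal of 20 in 3 or more kidneys. Two-sided p-values were adjusted over 677 genes (Benjamini-Hochberg). Intervals are 95% intervals of the same fit, and the number of kidneys, 3 per group, limits their precision. The script was tested on simulated data. Replicate numbers did not pair the kidneys: of 18 pairs with the same number, 3 deviated together with a correlation over 0.1 (range -0.298 to 0.395). Genes were named by rule: the 12 highest called interactions, the 5 called lower with Fcgrt as the next smallest p, the 3 smallest p of each gene list, all tested kidney injury, tubule and inflammasome genes, and the 6 genes called in both serum changes whose interval stayed closest to 0. Other called genes, H2-Ab1, Cd3e, Pecam1, Cdh5, Flt1, Tie1, Vegfb, Vegfc, Angpt2 and the proliferation genes named beside Ccne1 were chosen after their values were seen. Not every gene the rule allows is reported here. Members, lists and the rule were themselves chosen with earlier results of these data known, and some lists share members. Of the panel's accessions 748 of 770 matched RefSeq (GRCm38.p6), and 6 symbols differ there, among them Mb21d1 and Tmem173. Promoters are those of RefSeq.

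The alternatives tried were other pseudocounts, a square root scale, other filters, 4 other scalings, no variance trend, robust fitting, sample weights, a replicate block, each kidney left out, and 2 chosen after the data were seen (WT NTS 1 and WT control 1 left out together, and an adjusted p under 0.1).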

Additional observations from a re-analysis of the deposited data

Results flagged for a closer look

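The test of the difference between the genotypes' responses to serum itself passed for 70 genes, and each of those named in the text is listed here for that reason alone, as a log2 difference of the KO change minus the WT change. Among injury, matrix and epithelial genes the difference was Mmp7 4.01, Vcan 3.63, Spp1 2.26, Ppl 2.29, F2rl1 2.22, Itgb3 1.51, Thbs1 1.40, Tgfbr2 1.01 and Edn1 2.52. Among cytokines, growth factors and their receptors it was Cxcl1 3.11, Lif 2.72, Ccl20 2.68, Cxcl2 2.60, Cxcl5 2.42, Il34 2.16, Csf1 1.71, Il6ra 1.04 and Ifngr1 0.94. In myeloid and receptor genes it was Cd14 2.62, Itgam 2.26, Tlr2 2.08, Siglec1 2.02, Tlr8 1.99, Cd80 1.76, Mrc1 1.70, Csf2rb 1.51, Fcgr3 1.33, Syk 1.80, Tlr7 1.27, Ly6c1 0.84, Cd200r1 1.22, Vsir 1.42 and Vtcn1 1.87. In genes of sensing, transcription and presentation it was Cebpb 1.96, Tmem173 1.82, Fosl1 1.70, Myc 1.67, Tnfaip3 1.36, Nlrp3 1.32, H2-K1 1.22, Trp53 1.14, Nfkb1 1.06, H2-D1 1.03, Ifi35 0.94 and Rela 0.91. In the remaining genes named it was Slc7a5 2.18, Hk2 1.94, C7 1.67, Ccne1 1.62 and Slc2a1 1.48. Below 0 it was Vegfa -0.90, Angpt1 -1.02, Kdr -1.34, Fbp1 -1.73 and Egf -2.42. In the 9 fits named in the text that leave out 1 kidney, none of these passed.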

How the results depend on the processing

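The number of genes called moved widely while directions held. Beside 70 calls (65 higher, 5 lower), median centring gave 20 (12, 8) and quantile normalization 46 (20, 26). Scaling to 6 common reference genes gave 48 (42, 6) and scaling to the positive controls 9 (7, 2). No variance trend gave 44 (41, 3). Sample weights, whose estimation stopped before it converged, gave 291 (225, 66). A square root scale gave 105 calls with 99 higher, an adjusted p under 0.1 gave 134 (121, 13), and the fit without both WT NTS 1 and WT control 1 gave 212 (199, 13). With single kidneys left out the calls ranged from 0 to 207, higher from 0 to 189 and lower from 0 to 18. The other alternatives gave 54 to 75 calls. With the replicate number as a block 72 genes were called (67 higher, 5 lower), 62 of them shared with the reported 70. The numbers are no known pairing, and 3 of 12 kidneys correlated best with their own number. The planned count test was not run because values on the floor hold no whole counts.

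Of 55 called genes named in the text 54 kept their direction under every alternative, the exception being Spp1 at 0 with quantile normalization. As said above, that method can return 0 for a gene whose rank is the same in every kidney. Named genes that were not called and lie near 0 changed sign. With median centring Bax was at -0.43, Cdc20 at -0.47, Cdh5 at -0.077, H2-Ab1 at -0.35 and Pecam1 at -0.38. With quantile normalization Bax was at -0.41, Cdc20 at -0.43, Cdh5 at -0.14 and Pecam1 at -0.16. Other scalings put Cdc20 at -0.024 (common reference genes) and Rrm2 at 0.015 (positive controls). Sample weights gave Bax -0.030, Cd44 -0.16 and Rrm2 0.015. On the square root scale, in its own units, Birc5 was at 1.29, Mki67 at 2.87 and Rrm2 at 1.68. Without WT NTS 1 and WT control 1 together Casp1 was at 0.23, Bax at -0.00522, Cd3e at 0.11, Mki67 at 0.17 and Pecam1 at -0.046. With single kidneys left out Bax ranged from -0.0024 to 0.16, Gas1 from -0.21 to 0.046, Cd3e from -0.34 to 0.11, Cdc20 from -0.42 to 0.46, H2-Ab1 from -0.29 to 0.54, Pecam1 from -0.076 to 0.35 and Rrm2 from -0.29 to 0.13. The causes were not tested. Levels near the floor limit what can be read for Mmp7, Cxcl1, Cxcl2, Cxcl5, Ccl20, Siglec1, Hk2, Fosl1, Cd200r1 and Cd3e.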

Other observations

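The complement and Fc receptor lists held further calls. C7, which takes part in forming complement's lytic pore, was 595, 811 and 401 in KO NTS and 97.4 to 243 in the other 9 kidneys, an interaction of 1.67 (SE 0.41, adjusted p = 0.0356, limma). C7 and Itgam were 2 of the 7 tested complement genes called, with a list median of 0.95, and without WT NTS 1, 6 of the 7 were called. Syk, the kinase that activating Fc receptors signal through, was 179, 144 and 185 in KO NTS and 33.8 to 97.4 elsewhere, with an interaction of 1.80 (adjusted p = 0.0495). Of 6 tested genes of the Fc receptor list, which holds Syk beside receptors, 2 were called, Syk and the receptor gene Fcgr3. Without WT NTS 1, 3 of this list were called higher and 2 lower. Fcgrt, which encodes the neonatal Fc receptor, was at -1.01 and did not pass (adjusted p = 0.0566).

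Fosl1, an AP-1 subunit, was 73.8, 28.1 and 62.3 in KO NTS and 12.3 to 17.5 in the other 9 kidneys, 5 of which were on the floor. Its interaction was 1.70 (adjusted p = 0.0357), and Myc and Fosl1 were the 2 of 6 tested immediate early genes called. Ligands and receptors that restrain immune cells included Vsir, which encodes VISTA, at 1.42 (adjusted p = 0.0351), Vtcn1, which encodes B7-H4, at 1.87 (0.0352), and Cd200r1, the receptor of CD200, at 1.22 (0.0356). Vsir was 313 to 360 in KO NTS and 98.0 to 181 elsewhere. Cd200r1 was 29.1 to 37.4 in KO NTS and 10.0 to 17.5 elsewhere, close to the floor. Ifngr1, an interferon gamma receptor chain, was 1301 to 1405 in KO NTS and 520 to 916 elsewhere, an interaction of 0.94 (adjusted p = 0.0356).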
